A study of Mus musculus with 8 samples.

Results

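The thiazide-sensitive sodium chloride cotransporter and the kinases, ubiquitin ligase parts and potassium channels that set its activity were followed across 8 kidney libraries. The 10 members are Slc12a3, Pvalb, Wnk1, Wnk4, Stk39, Oxsr1, Klhl3, Cul3, Kcnj16 and Kcnj10. They were listed by name as pathway genes, with earlier results of these data known. They were found through their mouse Ensembl gene identifiers, which gave 1 row per member, or 10 of the 30153 rows of the expression table. The libraries came from the kidneys of 4 aged and 4 adult mice on a C57/BL6 background. Every animal carried the human gene for angiotensin receptor type 1, in its haplotype II (Hap-II), as a transgene, a model that the series title calls hypertensive, and every animal was on a western diet. Aged and adult mice therefore differed, per the labels, in age group only, and no library came from a mouse without the transgene or on another diet. Neither the ages, nor the sex, nor the promoter of the transgene is given in the sources used here. The question set by the design is how the renal transcriptome of these mice differed with age.

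Slc12a3 encodes the cotransporter (NCC) that takes up sodium and chloride from the urine in the distal convoluted tubule, and it is the target of thiazide diuretics. WNK kinases activate the kinases SPAK (Stk39) and OSR1 (Oxsr1), which phosphorylate the cotransporter. KLHL3 and CUL3 are the adaptor and scaffold of a ubiquitin ligase that removes WNK kinases, and the basolateral potassium channel made of Kir4.1 (Kcnj10) and Kir5.1 (Kcnj16) lets the cell sense plasma potassium. Much of this regulation acts on protein phosphorylation and turnover, which transcript levels do not measure.

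Values are TPM, a relative transcript abundance corrected for transcript length and scaled to a fixed library total, so levels of different genes can be set side by side. Markers of the distal convoluted tubule other than the members (Trpm6, Cnnm2, Tmem52b, Emx1, Sall3, Erbb4 and Egf) were present in all 8 libraries, and their summed level was 34.5 to 301 TPM in aged and 50.6 to 330.2 TPM in adult libraries. Egf, which the thick ascending limb also expresses, alone had 14.6 to 161 TPM in aged and 18.0 to 195 TPM in adult libraries. Skeletal muscle also expresses Pvalb, and the summed level of its 5 markers (Acta1, Ckm, Myh4, Tnnt3 and Atp2a1) was 0 to 0.514 TPM, with each marker at 0 in at least 4 libraries. Glia and nerve also express Kcnj10, and the summed level of 3 of their markers (Mbp, Gfap and Sox10) was 0.840 to 4.14 TPM, with Sox10 at 0 in 5 libraries. In whole kidney, fewer cells of a type and less RNA per cell cannot be told apart.

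The libraries also differed in ways that the age labels do not name. The summed level of 4 Y-linked genes (Ddx3y, Kdm5d, Eif2s3y and Uty) was 34.7 to 50.6 TPM in replicates 3 and 4 of both age groups and 0.485 to 2.30 TPM in replicates 1 and 2. They are called libraries with and without Y-linked transcripts below, a class of libraries read from the data and not a group of the study. The libraries with these transcripts had fewer genes at 1 TPM or more, 10663 to 11428, against 11802 to 12293 in the libraries without. Their size factors, the median ratio of a library's genes to their average over libraries, were also lower, 0.685 to 0.981 against 1.02 to 1.49. The 13 mitochondrial protein-coding genes took 26.8% to 46.9% of the TPM scale in aged and 19.6% to 26.1% in adult libraries, without overlap between the age groups. Between the classes this share overlapped, at 24.5% to 46.9% in libraries with and 19.6% to 32.9% in libraries without Y-linked transcripts. TPM holds no read depth, so no counting error can be attached to a value, and the spread between animals is the only error given.

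Promoter windows of the cotransporter and of the 3 members that passed the test between the library classes are shown, so that the regions that start these transcripts can be compared. Each window, from RefSeq on build GRCm38.p6, runs 5′ to 3′ from 250 bases before to 50 bases after a RefSeq transcription start. Capitals mark matches on either strand to 5 motifs: the TATA box core TATAAA, the CCAAT box, the GC box core GGGCGG, the sequence GTTAAT, which is part of the site of hepatocyte nuclear factor 1, and the sequence AGAACA, which is part of the site of steroid receptors. All 10 members matched the RefSeq table, with 14 windows in all. The windows shown lie at chr8:94328958-94329257 on the plus strand for Slc12a3, chr15:78206351-78206650 on the minus strand for Pvalb, chr2:68471932-68472231 on the minus strand for Stk39 and chr1:172340960-172341259 on the plus strand for Kcnj10.
Slc12a3: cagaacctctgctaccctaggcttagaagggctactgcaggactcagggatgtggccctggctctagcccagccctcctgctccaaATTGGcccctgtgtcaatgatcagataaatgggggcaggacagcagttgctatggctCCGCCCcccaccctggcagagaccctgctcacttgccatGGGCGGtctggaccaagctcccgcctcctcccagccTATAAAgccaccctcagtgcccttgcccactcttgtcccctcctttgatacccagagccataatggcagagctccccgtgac
Pvalb: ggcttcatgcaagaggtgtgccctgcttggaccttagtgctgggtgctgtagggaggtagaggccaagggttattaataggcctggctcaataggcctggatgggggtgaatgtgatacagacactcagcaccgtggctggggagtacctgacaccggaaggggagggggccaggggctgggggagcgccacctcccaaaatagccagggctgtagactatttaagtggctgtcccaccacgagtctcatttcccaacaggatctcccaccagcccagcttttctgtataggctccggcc
Stk39: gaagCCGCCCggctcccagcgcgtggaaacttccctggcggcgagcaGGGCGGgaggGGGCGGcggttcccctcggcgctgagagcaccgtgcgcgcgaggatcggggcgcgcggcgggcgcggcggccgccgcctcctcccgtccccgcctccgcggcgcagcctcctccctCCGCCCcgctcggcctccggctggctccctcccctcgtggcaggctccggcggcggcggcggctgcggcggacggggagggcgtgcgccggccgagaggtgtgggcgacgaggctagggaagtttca
Kcnj10: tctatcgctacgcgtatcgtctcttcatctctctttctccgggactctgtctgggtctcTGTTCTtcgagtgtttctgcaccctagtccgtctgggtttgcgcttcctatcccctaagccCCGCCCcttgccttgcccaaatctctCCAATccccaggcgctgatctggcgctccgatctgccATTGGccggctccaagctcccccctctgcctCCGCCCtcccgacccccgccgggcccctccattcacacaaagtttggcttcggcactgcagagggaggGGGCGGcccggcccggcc
The Slc12a3 window held 1 TATAAA 32 bases before the start, 1 CCAAT box and 2 GC boxes. The Stk39 window held 4 GC boxes, none of the other motifs and a GC content of 80.0%, against a median of 52.7% over all windows. The Kcnj10 window held 2 CCAAT boxes, 3 GC boxes and 1 AGAACA, read on the other strand as TGTTCT, 191 bases before the start. The Pvalb window shown held no match to any of the 5, and the second RefSeq window of Pvalb, at chr15:78204188-78204487, held 1 AGAACA 39 bases after its start. Of 32851 mouse windows, 13.6% held the TATA box core, 37.4% the CCAAT box, 35.7% the GC box core, 7.1% the hepatocyte factor sequence and 19.0% the steroid receptor sequence, and no match of one motif overlapped a match of another in the windows shown. These matches are letters in a window and were not tested as binding sites.

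Between aged and adult kidneys, none of the 10 members passed the test, and the levels of every member overlapped between the age groups. Slc12a3, the cotransporter, averaged 102 ± 96.3 TPM in aged and 101 ± 62.6 TPM in adult kidneys (SD, n = 4 each). Pvalb, a calcium-binding protein of the early distal convoluted tubule, had the largest log2 difference among the members with all 8 libraries, at 59.2 ± 41.6 TPM in aged and 80.2 ± 36.6 TPM in adult kidneys (SD, n = 4 each). By limma on log2(TPM + 1), with Benjamini-Hochberg adjustment, 0 of 11796 genes passed an adjusted p of 0.05 (0% called), and 400 (3.39%) had an unadjusted p under 0.05, of which 0 were members. Groups that did not overlap were seen in 2.46% of the genes tested and in 0 members. The log2 difference was negative in 7 of 10 members and in 65.0% of all genes, with medians of -0.06 and -0.11.

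Slc12a3 (chromosome 8, 94329201 to 94366214, plus strand, GRCm38) had 67.0, 244, 30.0 and 66.8 TPM in aged replicates 1 to 4, against 189, 92.9, 41.1 and 80.6 TPM in adult replicates 1 to 4. Aged replicate 2 and adult replicate 1 were the highest and replicate 3 the lowest of its group, and the aged libraries alone spanned 8.13-fold while the group means were nearly equal. The limma difference was -0.20 on the log2 scale (SE 0.59, 95% interval -1.48 to 1.08), which leaves room for changes larger than 2-fold either way. With the library class as a covariate the interval narrowed to -1.19 to 0.79.

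Pvalb (chromosome 15, 78191114 to 78206400, minus strand) had 66.8, 114, 20.2 and 35.4 TPM in aged replicates 1 to 4, against 116, 108, 52.4 and 45.0 TPM in adult replicates 1 to 4. Aged replicate 2 was near adult replicates 1 and 2, aged replicate 1 lay between them and the lower adult libraries, and aged replicates 3 and 4 lay below all 4 adult libraries. Its difference was -0.59 (SE 0.50, unadjusted p = 0.260 by limma, adjusted p = 1.00). It was -0.9998 without aged replicate 2 and -0.18 without aged replicate 3, where it was smaller in size than that of Wnk1 (0.38). With the library class as a covariate the same difference had an SE of 0.25 and an unadjusted p of 0.0392 by limma, with an adjusted p of 0.553. The difference was -0.84 among the libraries with Y-linked transcripts and -0.35 among those without.

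Of the WNK kinases, Wnk1 (chromosome 6, 119923969 to 120038672, minus strand) had 100.2, 196, 57.3 and 97.0 TPM in aged replicates 1 to 4, against 135, 105, 68.0 and 84.0 TPM in adult replicates 1 to 4. Its aged range enclosed the adult range. Kidney makes a short WNK1 form without the kinase domain beside the full-length kinase, and the gene-level value, drawn from a locus with 26 annotated transcripts, does not separate them. Wnk4 (chromosome 11, 101260567 to 101277409, plus strand), the WNK kinase whose mutations cause familial hyperkalaemic hypertension along with those of WNK1, had 42.5, 56.7, 27.4 and 52.2 TPM in aged replicates 1 to 4, against 60.4, 45.3, 30.6 and 49.2 TPM in adult replicates 1 to 4. Its levels were close between the groups, with replicate 3 lowest in both. The limma differences were 0.11 (SE 0.36) for Wnk1 and -0.06 (SE 0.30) for Wnk4.

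Of the kinases that WNKs activate, Stk39 (chromosome 2, 68210445 to 68472268, minus strand) had 18.9, 15.7, 6.37 and 7.31 TPM in aged replicates 1 to 4, against 17.5, 14.8, 5.07 and 7.38 TPM in adult replicates 1 to 4. Within each age group replicates 1 and 2 stood well above replicates 3 and 4, a split along the library class and not along age. The age difference was 0.11 (SE 0.44), and with the class as a covariate its 95% interval was -0.32 to 0.54. Oxsr1 (chromosome 9, 119238432 to 119322427, minus strand), the closest relative of Stk39, had 9.49, 13.0, 6.25 and 8.06 TPM in aged replicates 1 to 4, against 12.3, 9.17, 6.74 and 9.91 TPM in adult replicates 1 to 4. It varied 2.08-fold over the 8 libraries, and its age difference was -0.06 (SE 0.29). The annotated span of Oxsr1 overlaps that of Slc22a14 on the same strand, so reads from any shared exon may have been counted to either gene. Whether the exons overlap was not tested. Same-strand overlaps of spans were also found for Wnk1 (Mir706), Klhl3 (Mir874) and Cul3 (Gm37902 and Gm37262).

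Of the ubiquitin ligase parts, Klhl3 (chromosome 13, 58000228 to 58113592, minus strand), the adaptor that binds WNK kinases, had 4.25, 10.5, 2.05 and 3.88 TPM in aged replicates 1 to 4, against 9.81, 5.23, 1.96 and 4.32 TPM in adult replicates 1 to 4. It was the lowest member on average, and its 2 highest libraries, aged replicate 2 and adult replicate 1, were those of Slc12a3. Cul3 (chromosome 1, 80264923 to 80340480, minus strand), a scaffold used by many ligases in most cell types, had 47.6, 76.2, 49.9 and 83.2 TPM in aged replicates 1 to 4, against 72.5, 47.2, 44.1 and 58.9 TPM in adult replicates 1 to 4. On TPM as deposited it varied least among the members, 1.89-fold over the 8 libraries, but after size factors it varied 2.07-fold, against 1.30-fold for Oxsr1 and 1.35-fold for Wnk4. Its highest library was aged replicate 4. The age differences were -0.06 (SE 0.46) for Klhl3 and 0.19 (SE 0.27) for Cul3.

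Of the channel subunits, Kcnj16 (chromosome 11, 110968033 to 111027968, plus strand), which encodes Kir5.1, had 83.3, 228, 55.7 and 116 TPM in aged replicates 1 to 4, against 235, 115, 55.9 and 112 TPM in adult replicates 1 to 4. Kcnj10 (chromosome 1, 172341210 to 172374085, plus strand), which encodes Kir4.1, had 8.58, 21.8, 2.61 and 5.71 TPM in aged replicates 1 to 4, against 18.4, 9.01, 3.57 and 6.26 TPM in adult replicates 1 to 4. In both subunits aged replicate 2 and adult replicate 1 stood well above the other libraries of their groups. The age differences were -0.11 (SE 0.48) for Kcnj16 and -0.07 (SE 0.56) for Kcnj10.

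**Figure D1:**
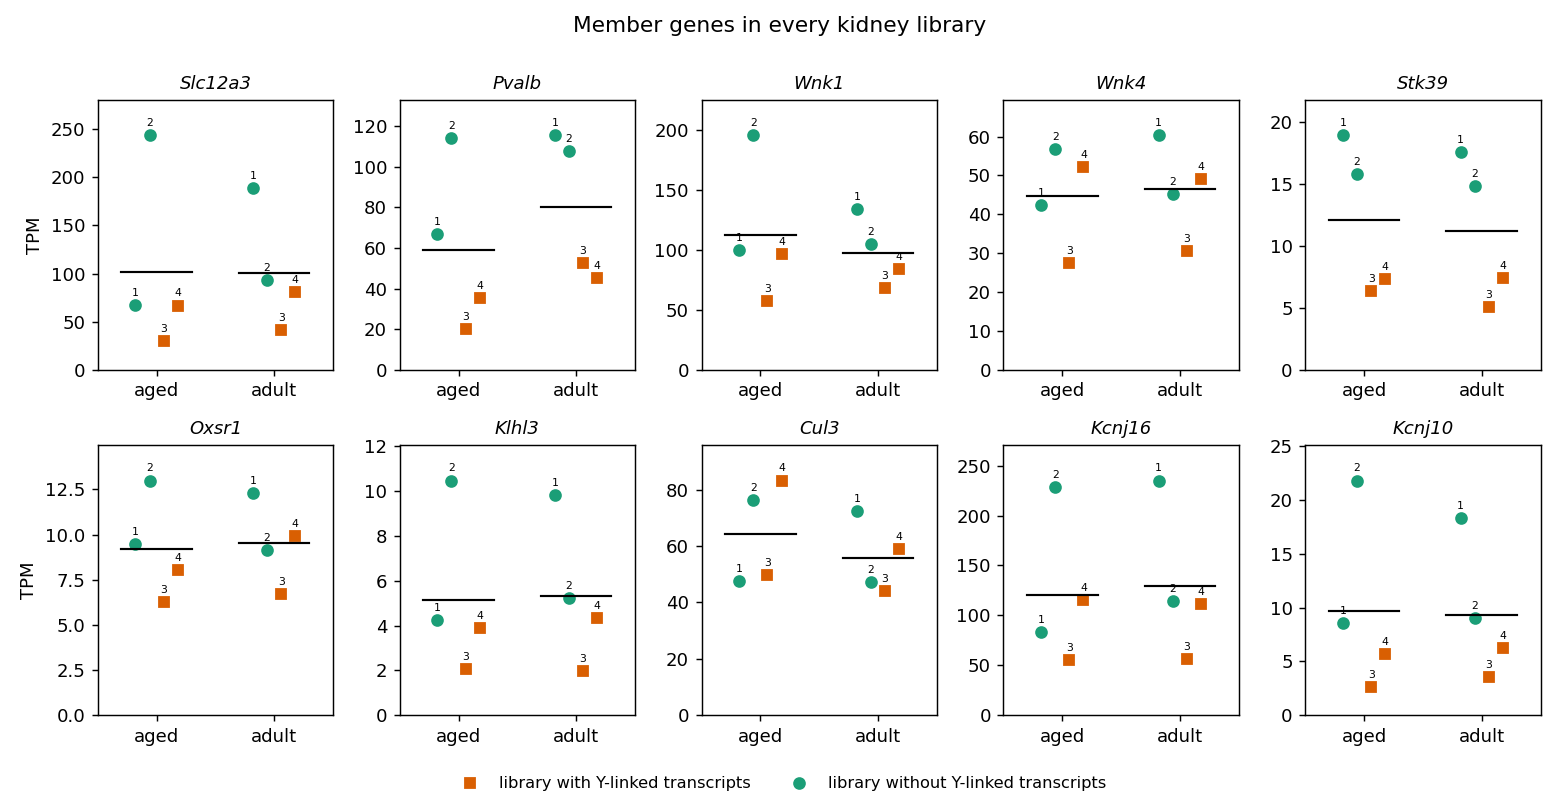
TPM of each member in every library, aged left and adult right, with the replicate number above each point and the group mean as a bar. Squares are libraries with Y-linked transcripts and circles libraries without; the aged and adult points overlap in all 10 panels, and in Stk39 the squares (5.07 to 7.38 TPM) lie below the circles (14.8 to 18.9 TPM).

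**Figure D2:**
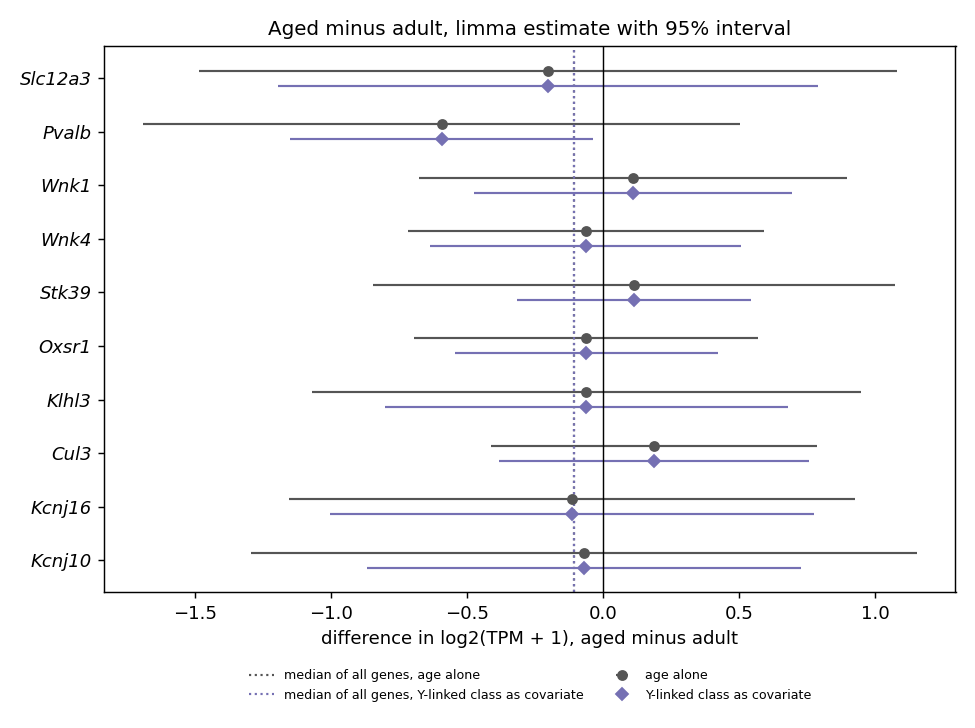
Aged minus adult difference of each member in log2(TPM + 1), with 95% intervals, from limma with age alone (circles) and with the library class as a covariate (diamonds). Both dotted lines, the medians of all genes, lie at -0.11, and of the members only Pvalb with the covariate has an interval (-1.15 to -0.04) that excludes 0, at an adjusted p of 0.553.

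The sign of these small differences depended on the scaling. With the mitochondrial protein-coding genes removed and the rest rescaled, the median of all genes was 0.15 in place of -0.11, and 9 of 10 members were positive, Pvalb (-0.30) being the exception, with a members' median of 0.20. Under every scaling tried 0 members passed the test by limma. Leaving out both aged replicate 2 and adult replicate 1, an alternative chosen after the data were seen, gave -0.39 (SE 0.41) for Slc12a3 and -0.79 (SE 0.46) for Pvalb, and again 0 members passed.

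On TPM as deposited, the difference between the library classes was larger than that between the age groups in every member but Cul3. All 10 were lower on average in the libraries with Y-linked transcripts on TPM as deposited and 7 after size factors, and 3 of them, Stk39, Pvalb and Kcnj10, passed the test with age as a covariate. Of all genes tested 12.4% were called, 11.3% lower and 1.13% higher in these libraries, and 89.2% had a negative difference, so the members' 3 of 10 has to be read against a wide shift of the table. The members' median difference was -0.97, against -0.46 over all genes. The split of calls over all genes was 133 higher and 1331 lower on TPM as deposited, against 348 higher and 292 lower after size factors, 316 and 320 after quantile normalization, 153 and 534 with mitochondrial genes removed, and 328 and 326 once the trend with transcript length was taken out of each library. Size factor and the number of detected genes moved with the class, and values after size factors are given beside the calls. Without both aged replicate 2 and adult replicate 1, 0 members and 285 genes were called by limma, and the members at an unadjusted p under 0.05 were Stk39, Pvalb and Kcnj10. Both left-out libraries are without Y-linked transcripts, and they were the 2 highest for every member but Stk39 and Cul3. Their removal therefore lowers the mean of that class for those members and leaves it fewer libraries.

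Stk39, the SPAK kinase, averaged 6.53 ± 1.08 TPM in libraries with Y-linked transcripts and 16.8 ± 1.82 TPM in libraries without (SD, n = 4 each), 61.0% lower. Its limma difference was -1.24 (SE 0.19, adjusted p = 0.00528), and no library of one class reached the other. After size factors the classes still did not overlap, at 6.94 to 9.30 scaled TPM with and 11.8 to 18.6 scaled TPM without Y-linked transcripts, with a difference of -0.73 (adjusted p = 0.0387 by limma). Without both aged replicate 2 and adult replicate 1 the difference was -1.25, with an adjusted p of 0.0514 by limma, which did not pass.

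Pvalb averaged 38.3 ± 13.9 TPM in libraries with Y-linked transcripts and 101 ± 23.2 TPM in libraries without (SD, n = 4 each), 62.2% lower, with no overlap. Its limma difference was -1.43 (SE 0.25, adjusted p = 0.00901). After size factors it was -0.87 with an adjusted p of 0.0550 by limma, and without both aged replicate 2 and adult replicate 1 it was -1.21 with an adjusted p of 0.0604, so neither passed. The classes also overlapped after size factors, at 29.5 to 71.9 scaled TPM with and 65.7 to 93.4 scaled TPM without Y-linked transcripts. The 5 skeletal muscle markers summed to 0 to 0.347 TPM in libraries with and 0.0350 to 0.514 TPM in libraries without Y-linked transcripts, and their part in the Pvalb difference was not tested.

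Kcnj10 averaged 4.54 ± 1.73 TPM in libraries with Y-linked transcripts and 14.4 ± 6.67 TPM in libraries without (SD, n = 4 each), 68.5% lower, with no overlap. Its limma difference was -1.43 (SE 0.36, adjusted p = 0.0341). The call was lost after size factors (-0.94, adjusted p = 0.0737 by limma), after quantile normalization (-0.95, adjusted p = 0.0731), with mitochondrial genes removed (-1.31, adjusted p = 0.0595) and with no filter on low genes (adjusted p = 0.0865). It was also lost when any of aged replicate 2, aged replicate 3, adult replicate 1 or adult replicate 3 was left out, with adjusted p of 0.105, 0.113, 0.0947 and 0.104 in that order. Without both aged replicate 2 and adult replicate 1 it was -0.88 (adjusted p = 0.228). These glia and nerve markers summed to 0.840 to 1.57 TPM in libraries with and 3.11 to 4.14 TPM in libraries without Y-linked transcripts, with Mbp, the 1 of the 3 above the filter, called lower (-1.06, adjusted p = 0.0139 by limma). Their part in the Kcnj10 difference was not tested.

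Slc12a3 itself averaged 54.6 ± 23.2 TPM in libraries with Y-linked transcripts and 148 ± 82.6 TPM in libraries without (SD, n = 4 each). Its difference of -1.34 (SE 0.44, 95% interval -2.33 to -0.35) did not pass, at an adjusted p of 0.0694 by limma. Adult replicate 4, at 80.6 TPM with Y-linked transcripts, lay above aged replicate 1, at 67.0 TPM without them. Without aged replicate 1 the difference was -1.68 (adjusted p = 0.0419), and Klhl3 also passed then (-1.26, adjusted p = 0.0449), for 5 members called. Under the other alternatives neither passed. Slc12a3 was at -0.94 (adjusted p = 0.182) without aged replicate 2, -0.78 (0.254) after size factors and -0.62 (0.392) without both aged replicate 2 and adult replicate 1. Klhl3 was at -0.57 (0.203) after size factors and -0.55 (0.411) without both libraries. With all libraries Klhl3 was at -1.03 (adjusted p = 0.0652), Wnk1 at -0.77 (0.0726), Kcnj16 at -0.91 (0.123), Oxsr1 at -0.46 (0.141), Wnk4 at -0.39 (0.250) and Cul3 at -0.05 (0.879), each with its limma adjusted p in parentheses.

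In 4 members, Wnk1, Stk39, Pvalb and Kcnj10, all 4 libraries with Y-linked transcripts lay below all 4 without on TPM as deposited, as in 21.3% of all genes. After size factors the classes overlapped for Pvalb and Wnk1 (83.7 to 98.9 scaled TPM with, 90.6 to 149 without) and not for Stk39 and Kcnj10. Cul3 then did not overlap either, but was higher with Y-linked transcripts (60.4 to 84.8 against 40.9 to 58.0 scaled TPM). The direction of the least affected members turned with the scaling. After size factors, which brought the median of all genes to 0.01, Wnk4 was at 0.16, Oxsr1 at 0.05 and Cul3 at 0.51 (adjusted p = 0.0852 by limma), and quantile normalization and removal of the length trend also made these 3 positive. With mitochondrial genes removed Cul3 alone was positive. The number of members called lower was then 1 after size factors, 2 after quantile normalization, 2 with mitochondrial genes removed and 3 after removal of the length trend, against backgrounds of 2.48%, 2.71%, 4.53% and 2.78% of genes called lower. Stk39 was called lower under each of these 4 scalings. No member passed limma's test of whether the age difference differed between the classes (lowest unadjusted p 0.365), for which 4 of 11796 genes (0.0339%) were called.

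**Figure D3:**
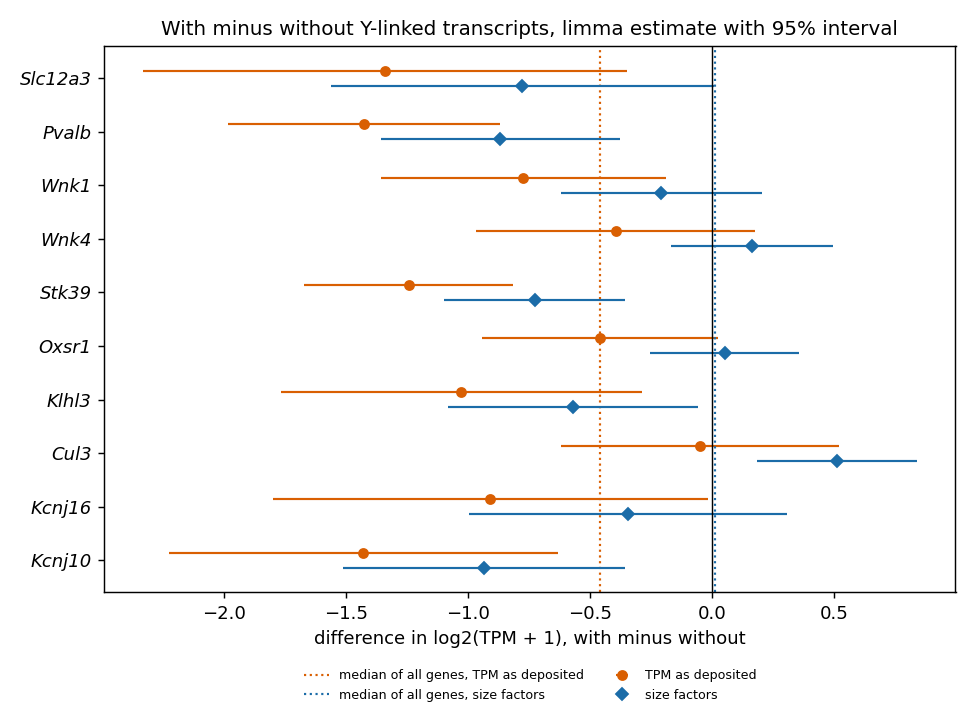
Difference of each member between libraries with and without Y-linked transcripts in log2(TPM + 1), with 95% intervals, on TPM as deposited (circles) and after size factors (diamonds). Dotted lines are the medians of all genes, -0.46 and 0.01; the intervals of Stk39, Pvalb and Kcnj10 lie below 0 on both scales, whereas Wnk4, Oxsr1 and Cul3 change sign.

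Ratios within a library do not depend on a single factor that scales the whole library and so show which members moved apart. The ratio of Stk39 to Oxsr1, the pair of kinases downstream of WNKs, was 1.02 and 0.908 in aged replicates 3 and 4 and 0.752 and 0.744 in adult replicates 3 and 4. Without Y-linked transcripts it was 1.99 and 1.21 in aged replicates 1 and 2 and 1.42 and 1.62 in adult replicates 1 and 2. Stk39 was thus the higher of the pair in 5 libraries, Oxsr1 in the 3 remaining ones, and the classes did not overlap. The ratio of Kcnj16 to Kcnj10 was 15.7 to 21.3 in libraries with and 9.71 to 12.8 in libraries without Y-linked transcripts, so Kir5.1 transcripts exceeded those of Kir4.1 in every library and by more in the first class.

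Klhl3 and Kcnj10 kept a narrow ratio to Slc12a3. The ratio of Klhl3 to Slc12a3 was 0.0429 to 0.0684 in aged and 0.0477 to 0.0563 in adult libraries, a 1.60-fold range while Slc12a3 itself varied 8.13-fold. The ratio of Kcnj10 to Slc12a3 varied 1.65-fold, and its classes did not overlap, at 0.0777 to 0.0871 in libraries with and 0.0893 to 0.128 in libraries without Y-linked transcripts. The ratio of Pvalb to Slc12a3, both of the distal convoluted tubule, ran more widely, 0.469 to 0.996 in aged and 0.558 to 1.28 in adult libraries, and overlapped between ages and between classes. Cul3 stood at 13.6 to 24.3 times Klhl3 in libraries with and 7.29 to 11.2 times in libraries without Y-linked transcripts. Of the 45 ratios between members, 18 did not overlap between the classes and 0 did not overlap between the age groups, against 23.4% and 2.11% of ratios of any tested gene to a member. Cul3 entered 7 of those 18 ratios, Kcnj10 6, Wnk4 4, Pvalb 1 and each of the other members 3.

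**Figure D4:**
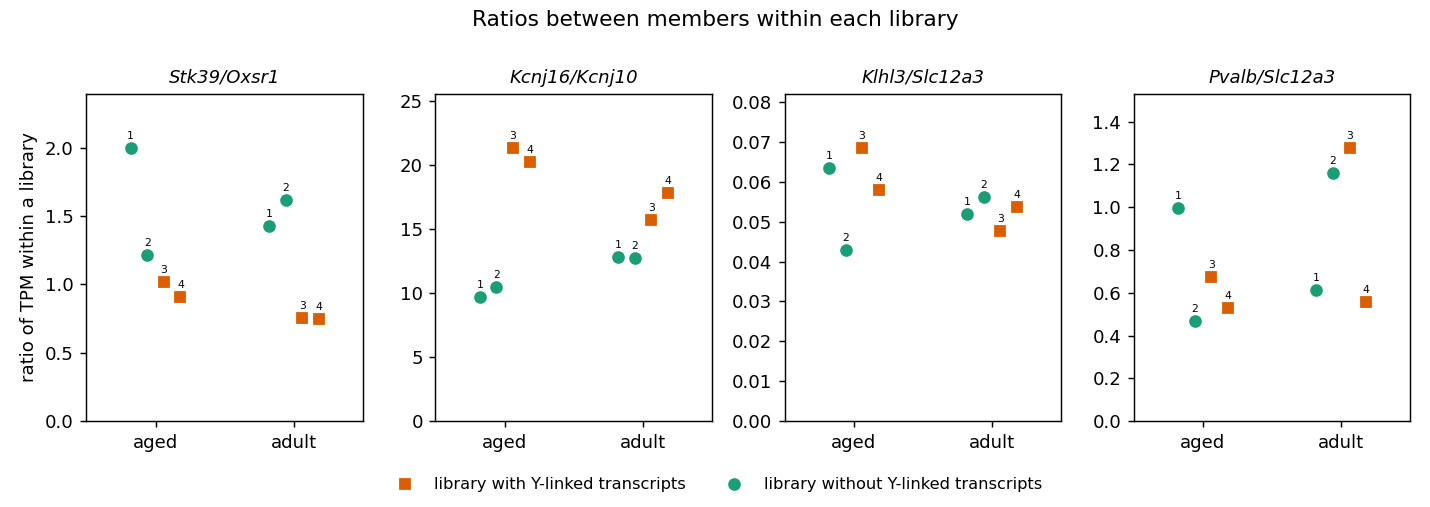
Ratio of TPM between pairs of members within each library, aged left and adult right, with replicate numbers and the library class by marker. Stk39/Oxsr1 (0.744 to 1.02 with, 1.21 to 1.99 without Y-linked transcripts) and Kcnj16/Kcnj10 separate the classes, and Klhl3/Slc12a3 and Pvalb/Slc12a3 do not.

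On the length-corrected TPM scale the members fell into a high and a low set. By mean over the 8 libraries the order was Kcnj16 (125 TPM), Wnk1 (105 TPM), Slc12a3 (101 TPM), Pvalb (69.7 TPM), Cul3 (59.9 TPM), Wnk4 (45.5 TPM), Stk39 (11.6 TPM), Kcnj10 (9.49 TPM), Oxsr1 (9.37 TPM) and Klhl3 (5.24 TPM). Wnk4 and Stk39 were the only neighbours in this order whose ranges did not overlap. Cul3 exceeded Wnk4 and Oxsr1 exceeded Klhl3 in 8 of 8 libraries, although their ranges overlapped. The other neighbours did not differ beyond their spread, with Kcnj16 above Wnk1 in 5 of 8 libraries and Kcnj10 above Oxsr1 in 2 of 8. Aged replicate 2 and adult replicate 1 were the 2 highest libraries for 8 members, all but Stk39 and Cul3, as for 39.0% of all genes. Aged replicate 3 was the lowest library for 7 members and for 43.2% of all genes, and adult replicate 3 for the 3 remaining members.

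The genes with the pattern most like that of Slc12a3 were ranked by the root mean square difference of log2 values, each centred on its own mean over the 8 libraries, among 7388 genes with a mean of at least 5 TPM. Kcnj10 came first (0.194), followed by Cwh43 (0.194), Alpl, a phosphatase of the proximal tubule brush border (0.226), Folh1 (0.229), Cubn, the endocytic receptor cubilin of the proximal tubule (0.241), and Cdhr2, a brush border cadherin (0.242). The median over all genes was 0.707, and Slc12a3 itself varied by 0.938 about its mean. Among the other members Kcnj16 ranked 35, Klhl3 43, Wnk1 543, Pvalb 952, Wnk4 2520, Oxsr1 2601, Stk39 2797 and Cul3 4667. The genes nearest in pattern thus included genes of the proximal tubule, and these libraries share the differences in size factor given above.

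Among 17 partners and regulators of the pathway, 15 were tested, and Wnk2 and Wnk3 fell below the filter of 1 TPM on average. Between aged and adult kidneys 0 of 15 passed by limma, 7 were negative and the median was 0.06. The 2 smallest unadjusted p-values belonged to catalytic subunits of protein phosphatases. Ppp1ca had 38.5, 32.3, 15.9 and 39.1 TPM in aged replicates 1 to 4, against 84.8, 56.5, 38.6 and 48.0 TPM in adult replicates 1 to 4 (-0.86, SE 0.34, unadjusted p = 0.0277 by limma, adjusted p = 1.00). Ppp4c had 19.3, 20.7, 11.4 and 18.1 TPM in aged replicates 1 to 4, against 37.3, 28.8, 22.4 and 24.4 TPM in adult replicates 1 to 4 (-0.68, SE 0.27, unadjusted p = 0.0301 by limma, adjusted p = 1.00). The 4 aged values of Ppp4c lay below all 4 adult values, whereas for Ppp1ca aged replicate 4 lay just above adult replicate 3. Klhl2 also did not overlap, at 10.1 to 12.5 TPM in aged and 7.75 to 9.72 TPM in adult kidneys (unadjusted p = 0.309 by limma). The age groups thus did not overlap in 2 of the 15, against 2.46% of all genes tested. Ppp3ca and Ppp3cb, also catalytic subunits of a phosphatase, had positive differences, 0.11 and 0.10.

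Between the library classes 1 of these 15, Ppp1r1a, was called lower, 14 were negative and the median was -0.46, as over all genes. Over all genes 11.3% were called lower and 89.2% were negative. Ppp1r1a encodes inhibitor 1 of protein phosphatase 1, an enzyme that dephosphorylates the cotransporter. It averaged 52.4 ± 14.7 TPM in libraries with and 145 ± 28.9 TPM in libraries without Y-linked transcripts (SD, n = 4 each), a difference of -1.47 (SE 0.17, adjusted p = 0.000925 by limma). It was called after size factors too (-0.91, adjusted p = 0.0372).

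The sodium pump carries the sodium taken up by the cotransporter out of the cell, Atp1b1 encodes its beta subunit and Fxyd2 a regulator, and Bsnd encodes barttin, a membrane protein of distal nephron cells. Of these 3 genes 0 passed by limma between aged and adult kidneys, 2 were negative and the median was -0.26, but with mitochondrial genes removed 1 was negative and the median was 0.023. Fxyd2 averaged 463 ± 255 TPM in aged and 635 ± 368 TPM in adult kidneys (SD, n = 4 each). Its unadjusted p of 0.425 and that of Bsnd, 0.602, were the smallest of the 3 by limma. Between the classes 2 of 3 were called lower by limma, Fxyd2 (-1.49, adjusted p = 0.00318) and Bsnd (-1.24, adjusted p = 0.0300), with a median of -1.24. After size factors only Fxyd2 was called (-0.92, adjusted p = 0.0193 by limma), and all 3 were negative with a median of -0.71. Over all genes 11.3% were called lower with a median of -0.46, and after size factors 2.48% with a median of 0.01.

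Of 4 other cation-chloride cotransporters (Slc12a1, Slc12a2, Slc12a4 and Slc12a7) 0 passed by limma between aged and adult kidneys, 1 was negative and the median was 0.099. Slc12a2 and Slc12a1 had the smallest unadjusted p-values of the 4, 0.303 and 0.548 (limma). Slc12a1, the loop-diuretic target of the thick ascending limb, was the 1 gene called between the classes, at 48.3 ± 9.0 TPM in libraries with and 150.2 ± 37.9 TPM in libraries without Y-linked transcripts (SD, n = 4 each). Its difference was -1.60 (SE 0.21, adjusted p = 0.00236 by limma), and after size factors -1.03 (adjusted p = 0.0114). Over all genes 11.3% were called lower between the classes, and 2.48% after size factors. The ratio of Slc12a3 to Slc12a1 was 0.658 to 1.61 in aged and 0.670 to 1.34 in adult libraries, with Slc12a3 the higher of the pair in some libraries and the lower in others.

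Of 6 steroid receptor and response genes 0 passed by limma between aged and adult kidneys, 2 were negative and the median was 0.29. Fkbp5, a glucocorticoid-induced chaperone, had the smallest unadjusted p. It had 33.6, 31.4, 8.16 and 12.1 TPM in aged replicates 1 to 4, against 3.70, 6.07, 6.42 and 13.7 TPM in adult replicates 1 to 4, and the groups overlapped through adult replicate 4. Its difference was 1.31 (SE 0.48, unadjusted p = 0.0188 by limma, adjusted p = 1.00), and that of Hsd11b2, which inactivates glucocorticoids in aldosterone target cells, was -0.50 (unadjusted p = 0.339). Between the classes Nr3c2, the mineralocorticoid receptor (-0.91, adjusted p = 0.0361), and Hsd11b2 (-1.33, adjusted p = 0.0283) were called lower by limma, and 0 of the 6 after size factors. Over all genes these shares were 11.3% and 2.48%.

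Between the classes, of 6 tested distal convoluted tubule markers 2, Tmem52b (-1.66, adjusted p = 0.0227 by limma) and Egf (-1.96, adjusted p = 0.0367 by limma), were called lower, and the median was -0.89. The summed level was 34.5 to 80.7 TPM in libraries with and 90.6 to 330.2 TPM in libraries without Y-linked transcripts. Of that sum, Egf, which the thick ascending limb also expresses, made up 14.6 to 34.3 TPM with and 41.0 to 195 TPM without. Of 5 thick ascending limb markers 4 (Umod, Slc12a1, Cldn16 and Kcnj1) were called lower, with a median of -1.60. The remaining marker, Cldn10, was at 0.02 (adjusted p = 0.939 by limma), and Slc12a1 is the same gene as the one called among the other cotransporters. Of 3 tested connecting tubule markers 2 were called lower. Of 6 proximal tubule markers 0 were called by limma, 5 were negative and the median was -0.82. Over all genes 11.3% were called lower and the median was -0.46. After size factors 0 of the 6 distal convoluted tubule markers and 0 of the 3 connecting tubule markers were called, with medians of -0.49 and -0.80, against 4 of the 5 thick ascending limb markers, with a median of -1.03. Over all genes 2.48% were then called lower and the median was 0.01. The part of a change in tubule segments in the members' differences was not tested. Without both aged replicate 2 and adult replicate 1, limma called 1 of the 15 partners and regulators, 1 of the 3 pump and barttin genes, 1 of the 4 other cotransporters, 0 of the 6 steroid genes, 0 of the 6 distal convoluted tubule markers and 4 of the 5 thick ascending limb markers lower. Over all genes 195 of 11796 were called lower without these libraries. Between aged and adult kidneys 0 of the 6 distal convoluted tubule markers passed by limma, 6 were negative and the median was -0.24, while with mitochondrial genes removed 4 were negative and the median was -0.0021.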

How the data were processed

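The deposited table holds TPM of 8 kidney libraries, 4 aged and 4 adult. The authors' TPM values are relative, and no source used here gives the step or annotation that made them. The tools named in the submitters' processing notes are kallisto and DESeq2 and the build is GRCm38, without versions or roles. Total RNA came from a Qiagen kit, and libraries were stranded and polyA-selected, per the labels' protocols. Of 30153 identifiers, 29732 (98.6%) matched a symbol. Column totals were 924798 to 950974 TPM, and no depth is known. Gene positions are those of GENCODE M21 on GRCm38.

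Genes with a mean of at least 1 TPM (11796) were compared on log2(TPM + 1) by limma (3.58.1, under R 4.3.3), with its trend option and Benjamini-Hochberg adjustment at 0.05; the log2(TPM + 1) scale understates changes of low genes. The class comparison used age as a covariate, with the class set by a Y-linked sum of at least 10 TPM. The code was tested on simulated data. Alternatives changed the pseudocount (0.1 and 5), the filter, the scaling, the variance model and the libraries included. All 10 members were named, and, of each other list, those that passed (at most 4) or else the 2 with the smallest unadjusted p. Some genes of 3 of the lists are not reported here, and the counts, medians and sums of those lists are over the genes named. The members, lists and class were chosen with earlier results of these data known. The series' design text gives 4 animals per group, so replicates were taken as separate animals.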

Additional observations from a re-analysis of the deposited data

How the results depend on the processing

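In the age comparison 0 members were called under every alternative run, and in the class comparison the direction of Stk39, Pvalb, Kcnj10, Slc12a3, Klhl3, Wnk1 and Kcnj16 held under every alternative run. Signs of small age differences turned, and the cause was not tested. With mitochondrial genes removed the age difference was 0.18 for Kcnj10, Kcnj16 and Klhl3, 0.21 for Oxsr1, 0.093 for Slc12a3 and 0.23 for Wnk4. After quantile normalization it was 0.15 for Kcnj16, 0.050 for Oxsr1, 0.053 for Slc12a3 and 0.16 for Wnk4, and after size factors 0.016 for Kcnj10, 0.026 for Klhl3, 0.030 for Oxsr1 and 0.038 for Wnk4. With the length trend removed it was 0.059 for Oxsr1. Among libraries with Y-linked transcripts it was 0.022 for Kcnj16 and -0.019 for Wnk1, and among those without 0.086 for Kcnj10 and 0.058 for Oxsr1. Without both aged replicate 2 and adult replicate 1 it was -0.034 for Wnk1. Leaving out 1 library gave -0.76 to 0.24 for Slc12a3, -0.54 to 0.34 for Kcnj10, -0.48 to 0.23 for Kcnj16, -0.42 to 0.25 for Klhl3, -0.23 to 0.089 for Oxsr1, -0.17 to 0.36 for Stk39, -0.20 to 0.38 for Wnk1, -0.24 to 0.15 for Wnk4, -0.9998 to -0.18 for Pvalb and 0.051 to 0.32 for Cul3.

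Between the classes, Cul3 was at 0.51 after size factors, 0.35 after quantile normalization, 0.145 with mitochondrial genes removed, 0.38 with the length trend removed, 0.27 without both libraries and -0.22 to 0.10 when 1 was left out. Wnk4 was at 0.16, 0.034 and 0.054, and Oxsr1 at 0.053, 0.029 and 0.010, after size factors, quantile normalization and removal of the length trend. Genes called between the classes numbered 762 with no filter, 640 after size factors, 636 after quantile normalization, 687 with mitochondrial genes removed, 654 with the length trend removed and 285 without both libraries, and 392 to 1953 when 1 was left out, against 1464. Members called were 1 after size factors, 0 without both libraries and 2 to 5 when 1 was left out. Genes called for age were 0 to 2 when 1 library was left out, 16 within libraries with Y-linked transcripts and 3 within those without. For the age difference between classes they were 0 with no filter, 2 after size factors or with the length trend removed, and 1 to 16 when 1 was left out. Where this left an arm with 1 library, it was assumed to vary like the others. Removal of the length trend and of both libraries was chosen after seeing the data.

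Correlations over genes between same-numbered aged and adult libraries were 0.04, 0.18, 0.49 and 0.42 for replicates 1 to 4. Aged replicates 3 and 4 correlated best with the adult library of the same number. Aged replicate 2 correlated best with adult replicate 1 (0.57) and aged replicate 1 with adult replicate 2 (0.41), so the numbers did not pair all samples. With the replicate number as a block limma called 0 genes and 0 members, and 916 genes had an unadjusted p under 0.05, against 400 without the block. With no known depth, the precision of low members such as Klhl3 cannot be given.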
